A study of Homo sapiens with 2 samples.

Results

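The genes described here are 36 genes of the endoplasmic reticulum (ER) machinery that folds secreted and membrane proteins, lets them into the organelle, senses their misfolding and sends the failures to the proteasome. They were chosen by name, and every probe set whose only platform gene symbol was one of these names was taken. Of the 36 genes, 33 had such a probe set (54 probe sets of 19065 with 1 symbol), and 32 genes were measured, through 52 probe sets, of 8277 measured genes on the arrays. DNAJB11, PDIA5 and SYVN1 had no probe set of their own, and the probe set of DNAJC3 lay under the floor on both arrays, at 51.0 and 44.6 signal units. The samples were 2 cultures of L-540, a long-established line of Hodgkin lymphoma cells. In 1 culture the cells were left untreated, and in the other they received vorinostat, an inhibitor of histone deacetylases. Each culture was read on 1 Affymetrix HG_U133A array. The sources used here gave neither dose nor time. Values are MAS5 signals, a linear intensity per probe set. A probe set under the floor of 68.9 units on both arrays was taken as not measured, and the ratio of one under it on 1 array is a bound. With 1 array a group there was no replicate check and no test, so the ratios below describe this pair of arrays.

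Proteins that enter the secretory pathway pass through the SEC61 channel into the ER lumen, where chaperones of the HSP70 and HSP90 families, the lectin chaperones and disulfide isomerases help them to fold. Proteins that fail are drawn back out and degraded by the proteasome, a route called ER-associated degradation. When misfolded protein builds up, the sensors ATF6, IRE1 and PERK start the unfolded protein response, in which cleaved ATF6 and the spliced form of XBP1 switch on chaperone and degradation genes through short promoter elements.

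The mean signal after trimming 2% of the values at each end was 500.2 on both arrays, which is what MAS5 scaling to a common target gives. The median signal was 126 untreated and 115 treated, and 61.2% of non-control probe sets of the untreated and 58.8% of the treated array lay above the floor. Of 9 markers of Hodgkin cells 7 were measured, 5 of them lower in the treated array and 2 higher, with a median log2 ratio of -0.62. The lower ones were TNFRSF8, which encodes CD30 (10777 untreated, 3228 treated), FUT4 (335 and 218), TRAF1 (1027 and 666), IL13 (153 and 86.7) and IL2RA (2966 and 2507), the first 4 by at least 1.5-fold. IRF4 (12032 and 14699) and GATA3 (1174 and 1565) were higher, whereas CCL17 (43.3 and 30.4) and LTA (8.74 and 7.93) were under the floor on both arrays. Plasma cells are rich in ER, so their markers were read too. Of 8 plasma cell markers 4 were measured, and TNFRSF17, JCHAIN, MZB1 and IGHG1 were under the floor on both arrays. PRDM1, the repressor that drives plasma cell differentiation, had signals of 2712 and 801 (3.39-fold lower), SDC1 had 91.2 and 137, CD38 276 and 297 and IGKC 199 and 157. Summed over brightest probe sets, the list had 3370.5 untreated and 1503 treated with PRDM1, and 659 and 702 without it. The part of PRDM1 in the ER genes was not tested. Of the other lists, 2 of 5 monocyte markers were measured (CSF1R at 207 and 149, ITGAM at 129 and 76.5), with CD14, LYZ and FCGR1A under the floor on both arrays. Of 4 fibroblast markers 3 were measured (COL1A1 at 276 and 273, DCN at 111 and 93.9, COL1A2 at 48.2 and 97.8), and of 5 epithelial ones 2 (KRT8 at 82.9 and 108, KRT18 at 49.7 and 76.4), with COL3A1, EPCAM, KRT19 and CDH1 under the floor on both arrays. COL1A2 and KRT18 were under the floor on the untreated array only. In bulk RNA of this kind, fewer cells with a transcript and less of it per cell cannot be told apart.

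Most of the ER genes were slightly brighter in the treated array and few passed 2-fold. Of the 32 measured genes, 2 were at least 2-fold higher in the treated array, where 3.77% of all measured genes were, and 0 were at least 2-fold lower, against 5.12% of all measured genes. The 2 were HSP90B1 and UFD1, and neither rests on a probe set free of a suffix that marks sequence shared with other transcripts. At a threshold of 1.5-fold, 5 of the 32 were higher (12.7% of all measured genes), namely HSP90B1, UFD1, SEC61B, SEL1L and MANF, and 0 were lower (15.5% of all). The ratio of treated over untreated was above 1 for 22 of 32 members (68.8%) and for 47.0% of all measured genes. Counted by probe set, 2 of 52 were at least 2-fold higher (3.65% of all measured probe sets), 0 were 2-fold lower (5.47% of all), 8 were at least 1.5-fold higher (12.5% of all), 1 of them a SEL1L probe set that gives a bound, and 34 had a ratio above 1 (46.1% of all). The median log2 ratio was 0.22 over the members and -0.04 over all measured genes.

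The members are mostly bright, and ratios on these arrays shift a little with brightness. Among the 3936 measured genes whose level lay between the 10th and 90th percentile of the members' levels (443 to 5500 signal units), the median log2 ratio was 0.04 and 52.4% were above 0. The share of all genes above 0 also depends on scaling. Scaling the arrays to equal medians moved the median of all genes from -0.04 to 0.08 and that of the members to 0.35. The members' median lay above that of all genes by 0.26 as deposited, by 0.27 with equal medians, by 0.17 after quantile normalization and by 0.20 after loess. Over all measured genes, the calls past 2-fold were 42.4% higher ones as deposited and 58.8% with equal medians.

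**Figure D1:**
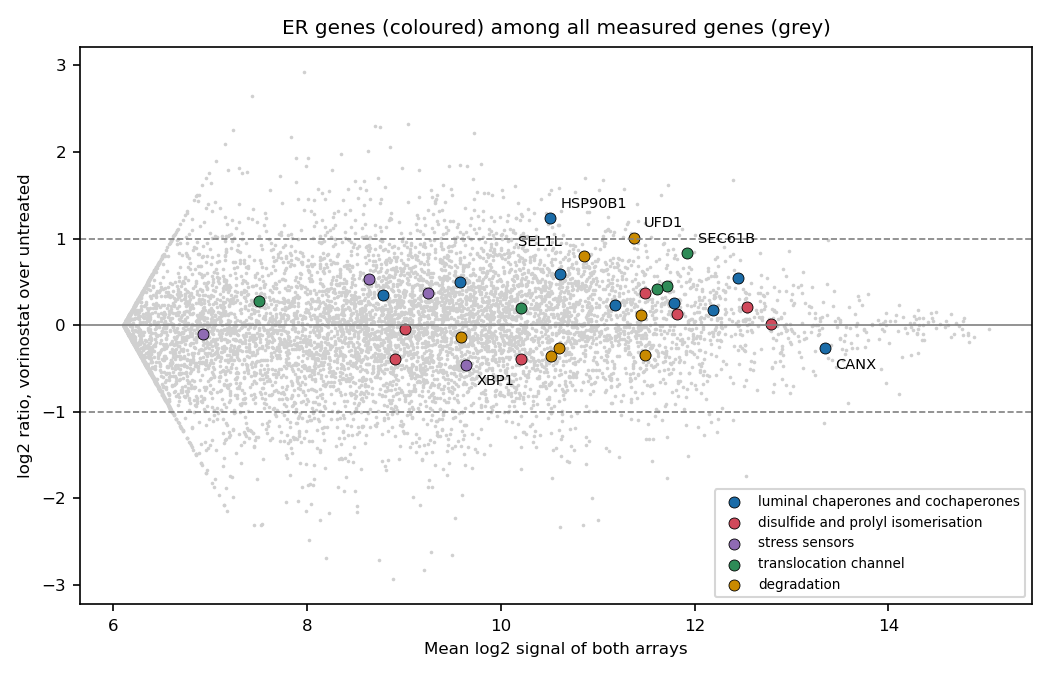
Log2 ratio of treated over untreated against mean log2 signal for all measured genes (grey) and the 32 measured ER genes (coloured by role). Dashed lines mark 2-fold. HSP90B1 and UFD1 are the coloured points at or above the upper line, and none lies under the lower one.

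By role, the members did not all lean the same way. The median log2 ratio was 0.42 over the 5 genes of the translocation channel and 0.35 over 9 chaperones and cochaperones. It was 0.14 over 4 genes of stress sensing, namely XBP1 and the sensor genes ATF6, ERN1 and EIF2AK3. For 7 genes of disulfide and prolyl isomerisation it was 0.01, and for 7 degradation genes -0.13. The number with a ratio above 1 was 5 of 5, 8 of 9, 2 of 4, 4 of 7 and 3 of 7 in the same order. The mean log2 ratios were 0.44, 0.40, 0.09, -0.01 and 0.12. Mean and median thus differed in sign for isomerisation and for degradation, where UFD1 and SEL1L had high ratios. Under the alternative settings tried the sign of each of the medians held, except that of isomerisation. The isomerisation median was -0.03 when a gene's value was the median over its probe sets. It was -0.014 with the probe sets listed under a microRNA gene too. The degradation median kept its sign only narrowly with equal medians, at -0.0045. The groups are small, and no difference between them was tested.

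**Figure D2:**
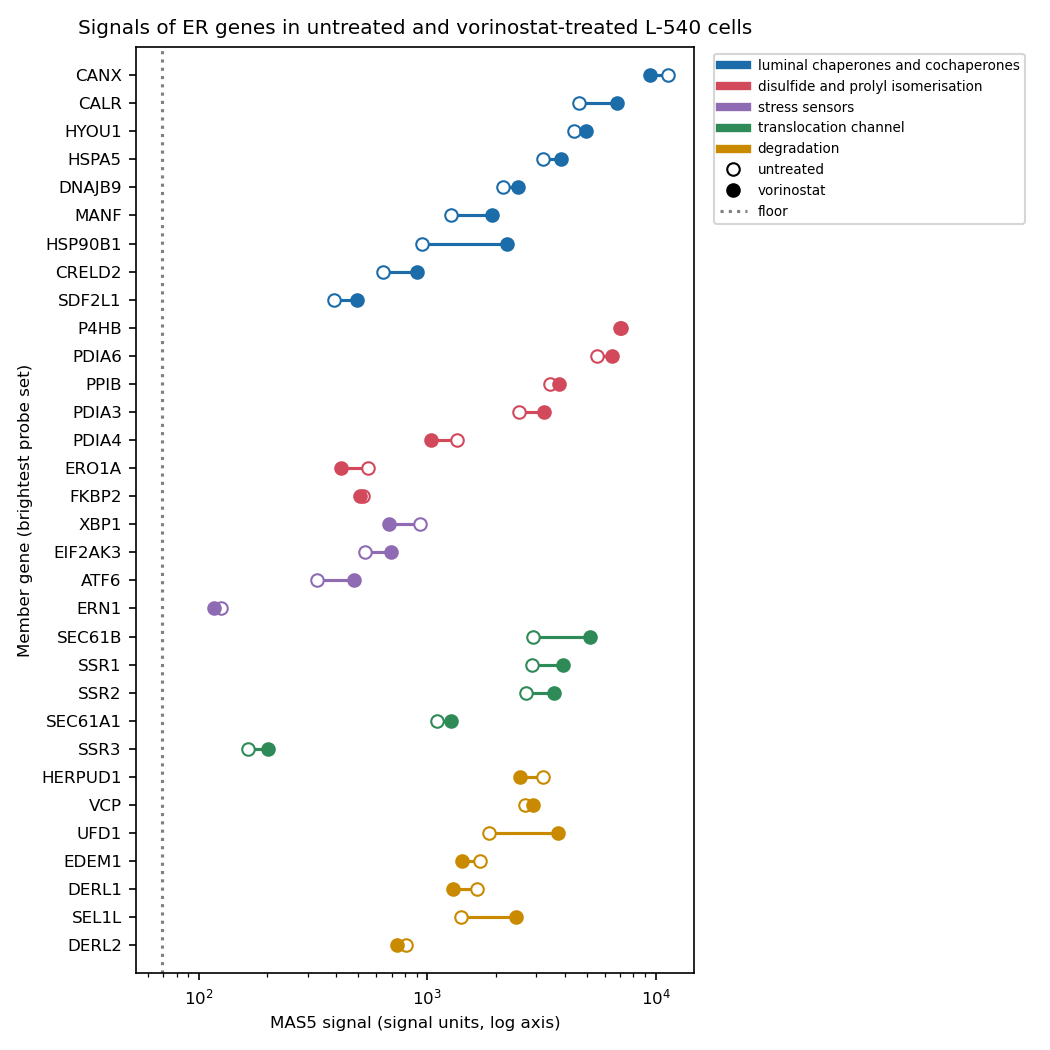
MAS5 signal on a log axis for the brightest probe set of each of the 32 measured members, untreated (open) and treated with vorinostat (filled), coloured by role; the dotted line is the floor of 68.9 units. In the translocation channel all 5 filled points lie to the right of the open ones; HSP90B1, UFD1, SEC61B and SEL1L have the widest gaps.

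Among the chaperones, the members of the HSP70 and HSP90 families were higher in the treated array to differing degrees. HSPA5, which encodes BiP, the HSP70 of the ER and the usual readout of the unfolded protein response, had 3220.0 signal units untreated and 3859 treated (1.20-fold higher). HYOU1, a large HSP70 relative that serves BiP as a nucleotide exchange factor, had 4411 and 4966 (1.13-fold higher). DNAJB9, a J-domain cochaperone of BiP, had 2138 and 2511 on its brightest probe set, but 280.0 and 230.5 on its other one. The ratios of DNAJB9 therefore point in opposite directions, with log2 ratios of 0.23 and -0.28. SDF2L1, a partner of the ER J-domain proteins, had signals of 389 and 495 (1.27-fold higher).

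HSP90B1, which encodes GRP94, the HSP90 of the ER, gave the largest ratio of all members on probe sets with 1 symbol. It also gave the largest disagreement between probe sets. Its brighter own probe set had 946 untreated and 2231 treated (2.36-fold higher), and its dimmer one had 438 and 398, a log2 ratio of -0.14. The names of both probe sets end in a suffix for shared sequence. A further pair of probe sets is listed under HSP90B1 together with the microRNA gene MIR3652 and was kept out of the counts. Those had signals of 3122 and 5662 (1.81-fold higher) and of 6092 and 10606 (1.74-fold higher). So 3 of the 4 probe sets that carry this symbol were at least 1.74-fold higher, and 1 of them passed 2-fold. The pair listed with MIR3652 was brighter than the gene's own probe sets. With that pair counted, the log2 ratio of HSP90B1 was 0.80, below those of UFD1 (1.01) and SEC61B (0.83).

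The lectin chaperones, which hold glycoproteins through their sugars, differed from each other in direction. CALR, the soluble calreticulin, had 4640 and 6757 on its brightest probe set (1.46-fold higher), 3273 and 4874 on the second and 1048 and 1737 on the third. Its 3 log2 ratios, 0.54, 0.57 and 0.73, lay close together. CANX, the membrane-bound calnexin, went the other way on each of its 3 probe sets, from 11368 to 9478 (1.20-fold lower), from 6958 to 5547 and from 4381 to 2669. The last of these, at a log2 ratio of -0.71, was the only member probe set of the 52 measured that was at least 1.5-fold lower, where 16.1% of all measured probe sets were.

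Of the small secreted stress proteins, MANF, a neurotrophic factor held in the ER by BiP, had signals of 1268 and 1919 (1.51-fold higher). CRELD2, an ER protein rich in cysteines, had 644 and 906 (1.41-fold higher). Each rests on 1 probe set without a shared-sequence suffix.

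**Figure D3:**
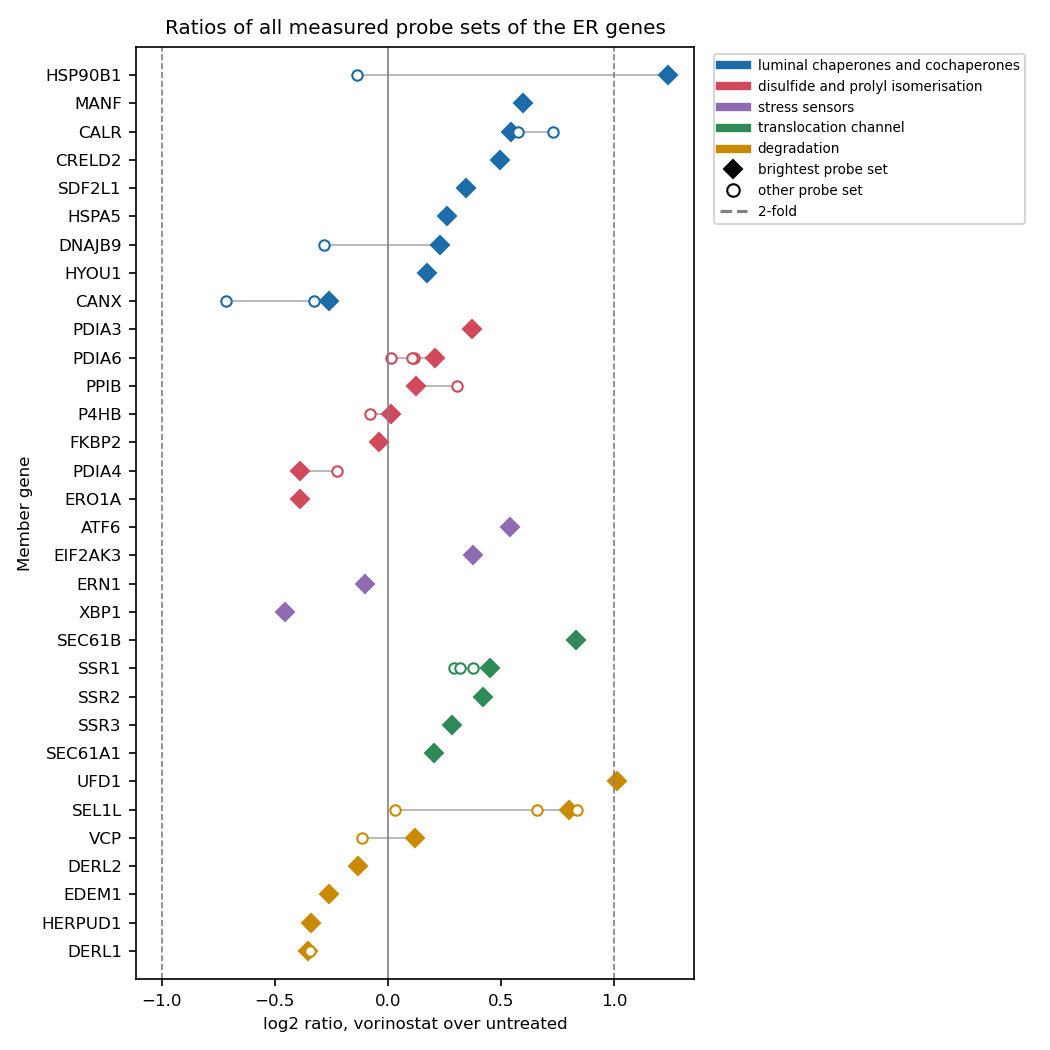
Log2 ratio of treated over untreated for each of the 52 measured probe sets, by gene and role; diamonds are the brightest probe set of a gene, open circles the others, and dashed lines mark 2-fold. The probe sets of CALR, PDIA6 and SSR1 sit close together, whereas those of HSP90B1 and DNAJB9 lie on both sides of 0.

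The promoters of these genes are where the unfolded protein response acts, so they are shown here. Promoter windows came from RefSeq on build GRCh38.p14, each running from 250 bases before an annotated start to 50 after it, and 33 of the 36 members were matched by symbol. DERL1, PDIA3 and UFD1 had no entry. Searches on both strands were made for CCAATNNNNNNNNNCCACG, the ER stress element (ERSE) bound by ATF6 together with the CCAAT factor NF-Y, for ATTGGNCCACG, ERSE-II, and for TGACGTG, the core of the element bound by XBP1 and ATF6. The windows below are those of the founding chaperones HSPA5, HSP90B1 and CALR, of XBP1 and CRELD2, and of HYOU1 and HERPUD1 for ERSE-II. XBP1 and CRELD2 are a pair of ERSE-bearing genes picked for their opposite ratios. CANX, whose window is not printed, also holds an ERSE and was lower, as XBP1 was. Each printed window is written 5′ to 3′ on the strand of the gene, with every match in capitals.
HSPA5, chr9:125241294-125241593, minus strand: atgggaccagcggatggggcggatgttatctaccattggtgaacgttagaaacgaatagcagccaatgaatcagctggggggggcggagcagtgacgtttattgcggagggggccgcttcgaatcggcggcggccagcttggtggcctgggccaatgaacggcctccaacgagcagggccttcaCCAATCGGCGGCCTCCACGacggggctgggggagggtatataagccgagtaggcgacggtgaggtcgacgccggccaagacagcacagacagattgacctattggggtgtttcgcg
HSP90B1, chr12:103930160-103930459, plus strand: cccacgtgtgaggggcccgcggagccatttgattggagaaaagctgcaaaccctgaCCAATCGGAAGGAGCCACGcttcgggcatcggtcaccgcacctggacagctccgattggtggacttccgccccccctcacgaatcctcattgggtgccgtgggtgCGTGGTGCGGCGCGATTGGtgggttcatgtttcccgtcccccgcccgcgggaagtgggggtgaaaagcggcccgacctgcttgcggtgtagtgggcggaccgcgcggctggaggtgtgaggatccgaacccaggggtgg
CALR, chr19:12938359-12938658, plus strand: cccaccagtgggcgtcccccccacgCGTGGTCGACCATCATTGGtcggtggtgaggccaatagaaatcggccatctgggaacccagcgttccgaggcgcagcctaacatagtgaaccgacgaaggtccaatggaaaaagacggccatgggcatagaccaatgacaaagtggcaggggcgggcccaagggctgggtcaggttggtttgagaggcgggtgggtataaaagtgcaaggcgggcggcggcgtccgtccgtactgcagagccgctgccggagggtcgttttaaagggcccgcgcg
XBP1, chr22:28800520-28800819, minus strand: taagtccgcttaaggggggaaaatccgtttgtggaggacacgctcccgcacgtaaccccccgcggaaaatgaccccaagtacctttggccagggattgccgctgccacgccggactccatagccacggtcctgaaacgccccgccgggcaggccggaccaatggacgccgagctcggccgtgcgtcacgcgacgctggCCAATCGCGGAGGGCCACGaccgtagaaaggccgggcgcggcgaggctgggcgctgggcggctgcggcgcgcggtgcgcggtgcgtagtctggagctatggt
CRELD2, chr22:49918384-49918683, plus strand: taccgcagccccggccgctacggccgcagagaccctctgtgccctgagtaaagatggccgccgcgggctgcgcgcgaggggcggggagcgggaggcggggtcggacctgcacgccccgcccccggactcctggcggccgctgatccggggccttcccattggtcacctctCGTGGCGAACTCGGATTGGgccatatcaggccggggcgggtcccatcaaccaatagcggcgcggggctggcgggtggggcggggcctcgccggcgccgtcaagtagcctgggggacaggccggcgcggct
HYOU1, chr11:119057156-119057455, minus strand: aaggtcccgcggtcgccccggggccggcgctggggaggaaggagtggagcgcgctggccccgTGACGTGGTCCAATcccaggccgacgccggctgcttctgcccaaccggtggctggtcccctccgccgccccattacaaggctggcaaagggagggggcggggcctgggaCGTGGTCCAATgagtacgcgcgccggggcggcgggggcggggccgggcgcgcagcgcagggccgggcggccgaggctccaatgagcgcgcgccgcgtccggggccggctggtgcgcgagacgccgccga
HERPUD1, chr16:56931892-56932191, plus strand: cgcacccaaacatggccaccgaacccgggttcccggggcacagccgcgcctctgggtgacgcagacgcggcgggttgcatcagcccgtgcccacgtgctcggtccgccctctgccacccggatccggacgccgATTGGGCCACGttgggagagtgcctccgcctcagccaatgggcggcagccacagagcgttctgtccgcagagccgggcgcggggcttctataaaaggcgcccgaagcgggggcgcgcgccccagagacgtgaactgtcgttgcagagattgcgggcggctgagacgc

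An ERSE was found in the windows of 7 of 33 member genes (21.2%), CALR, CANX, CRELD2, HSP90B1, HSPA5, PDIA6 and XBP1, and in 25 of all 27305 genes of the table (0.0916%). HSP90B1 held a pair of them, at -194 to -176 and at -89 to -71, counting the start base as 0. That of HSPA5 lay at -66 to -48 and that of XBP1 at -52 to -34. The CANX element is 1 site seen in 3 overlapping windows, and that of PDIA6 belongs to the second of its annotated starts. ERSE-II was found for HERPUD1, HYOU1 and SDF2L1 (9.09% of members, 0.0696% of all genes), with a pair in HYOU1. TGACGTG was found for HYOU1, SEC61A1, SSR3 and VCP (12.1% of members, 2.40% of all genes), and in HYOU1 it overlaps the farther ERSE-II. These counts describe letters in these windows and were not tested. The elements are known from genes of this response, so a higher share among the members is no independent result. A window without a match says only that these letters are absent from it.

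Genes that share an ERSE or an ERSE-II did not share a ratio. The 7 with an ERSE ran from a log2 ratio of -0.45 for XBP1 to 1.24 for HSP90B1, with a median of 0.26 and 5 of 7 above 0. The 22 measured members whose windows lacked it had a median of 0.19, with 15 above 0. The 3 with ERSE-II had log2 ratios of -0.34 (HERPUD1), 0.17 (HYOU1) and 0.35 (SDF2L1). The 4 with TGACGTG were all above 0, from 0.12 to 0.28, with a median of 0.19. The 25 measured members without TGACGTG had a median of 0.23, with 16 above 0. No difference between these sets was tested.

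**Figure D4:**
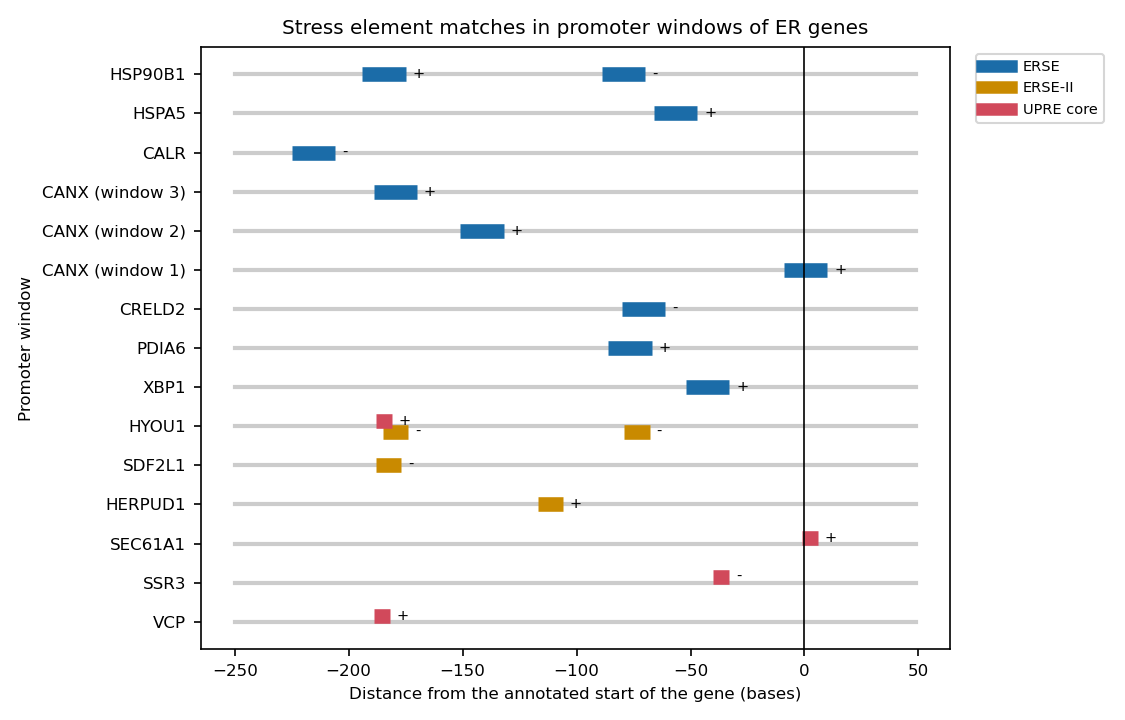
Matches to ERSE (blue), ERSE-II (ochre) and the TGACGTG core, drawn as UPRE core (red), in the promoter windows of the 13 members that hold any, by distance in bases from the annotated start (0); + and - give the strand of the match relative to the gene. HSP90B1 holds 2 ERSE matches, and the 3 CANX windows show the same site at different distances.

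The enzymes of disulfide formation and prolyl isomerisation had ratios to both sides of 1. P4HB, the founding protein disulfide isomerase, had 7021 untreated and 7083 treated, log2 ratios of 0.01 and, on its dimmer probe set, -0.08. PDIA6 had 5556 and 6419, and its 4 probe sets ranged in log2 ratio from 0.01 to 0.21. PDIA3, which works on glycoproteins with the lectin chaperones, had 2518 and 3259 (1.29-fold higher). PDIA4 was lower on both of its probe sets, from 1355 to 1036 (1.31-fold) and from 509 to 435. ERO1A, the oxidase that recharges the disulfide isomerases, had 550.4 and 420.6, also 1.31-fold lower. The prolyl isomerase genes PPIB (3449 and 3759) and FKBP2 (523 and 509) had log2 ratios of 0.12 and -0.04, and that of FKBP2 was 0.088 with equal medians. The probe set listed for PDIA5 with the microRNA gene MIR7110 had 895 and 821. Of the 7 measured genes 0 passed 1.5-fold in either direction, where 12.7% of all measured genes were higher and 15.5% lower.

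The 5 members of the translocation channel were all brighter in the treated array, under each scaling tried. SEC61B, the beta subunit of the channel, had 2910.0 untreated and 5176 treated (1.78-fold higher), which placed it above 93.8% of all measured genes in ratio. SEC61A1, which encodes the pore-forming subunit, had 1102 and 1269 (1.15-fold higher). The subunits of the channel thus differed in size of ratio. The translocon-associated protein genes SSR1, SSR2 and SSR3, whose products sit beside the channel and aid certain substrates, had signals of 2880.1 and 3939, of 2703 and 3610.2, and of 165 and 200.4. Their ratios were 1.37-fold, 1.34-fold and 1.22-fold higher, and the 4 probe sets of SSR1 ranged in log2 ratio from 0.29 to 0.45. SSR4, of the same family but not a member, went the other way. It had 2662 and 2421, a log2 ratio of -0.14, and is counted in the signal recognition list below.

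The sensor genes and XBP1, which was grouped with them, differed in direction. ATF6, whose cleaved form binds the ERSE, had 331 and 480.1 (1.45-fold higher) on 1 probe set, and its other probe set was under the floor on both arrays. EIF2AK3, which encodes the kinase PERK, had 534 and 694 (1.30-fold higher). ERN1, which encodes IRE1, had 126 and 117, a log2 ratio of -0.10 that was above 0 after quantile normalization and with equal medians. XBP1, the transcription factor whose RNA IRE1 splices, had 933 and 681 (1.37-fold lower), the lowest ratio among the 32 members on their brightest probe sets. The array signal does not tell spliced from unspliced XBP1 RNA.

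Degradation genes held both high ratios and low ones. UFD1, the cofactor through which the ATPase p97 grips ubiquitinated proteins leaving the ER, had 1864 and 3753 (2.01-fold higher), on 1 probe set with a shared-sequence suffix. Its log2 ratio of 1.01 was 0.99 after quantile normalization and 0.98 after loess, just short of 2-fold. VCP, which encodes p97 itself, had 2680.2 and 2911 on its brighter probe set and 591 and 545 on the other, log2 ratios of 0.12 and -0.12. The ATPase and its cofactor thus differed in ratio.

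SEL1L, the adaptor that holds the ubiquitin ligase of the degradation complex together, had 1411 and 2456 on its brightest probe set (1.74-fold higher). Its next probe sets had 399.6 and 630.1, and 378 and 386, and the dimmest went from 30.7, under the floor, to 123 (at least 1.78-fold higher). Of the 3 SEL1L probe sets above the floor on both arrays, 2 were at least 1.5-fold higher and 1 had a log2 ratio of 0.03. The remaining 4 degradation genes were lower under each setting that gave them a value; HERPUD1 and DERL1 have none without shared-sequence probe sets. HERPUD1, a stress-induced scaffold of the ligase, had 3225 and 2544 (1.27-fold lower). DERL1 and DERL2, which form the exit path through the membrane, had 1654 and 1293 (1.28-fold lower, with log2 ratios of -0.36 and -0.35 on its pair of probe sets) and 806 and 735 (1.10-fold lower). EDEM1, which marks glycoproteins for degradation by trimming mannose, had 1700.0 and 1418 (1.20-fold lower).

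Other genes of the pathway, in lists that held none of the members, can be set beside these values. Over all measured genes, 3.77% were at least 2-fold higher, 5.12% at least 2-fold lower and 47.0% had a ratio above 1. Of 24 measured further folding and glycan control genes, 0 were at least 2-fold apart, 17 had a ratio above 1, and the median log2 ratio was 0.23. The highest were ERP44, which retrieves unassembled proteins from the Golgi (955 and 1654, 1.73-fold higher, and a log2 ratio of 0.25 on its other measured probe set), and the prolyl isomerase gene FKBP14 (106 and 162, 1.54-fold). TMX4 (290.4 and 182, 1.59-fold lower) and the mannosidase gene MAN1B1 (463 and 384, 1.21-fold lower, but 281 and 295 on its other probe set) were lowest on their brightest probe sets. Of 17 measured further degradation genes, 1 was at least 2-fold lower and 0 higher, with a median of -0.04 that was 0.085 with equal medians and 0.027 without shared-sequence probe sets. The lower one was ATXN3, a deubiquitinase that binds p97 (300.4 and 75.8, 3.96-fold lower, and a log2 ratio of -0.60 on its other probe set). Next was UBXN8 (236 and 149, 1.59-fold lower). EDEM3 (241 and 373, 1.55-fold, and 146 and 317 on its other probe set) and the ubiquitin ligase gene RNF139 (579.8 and 832, 1.43-fold) were highest.

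Genes of signal recognition, signal cleavage and N-glycosylation, the steps around the channel, were spread to both sides of a ratio of 1. Of 25 measured, 1 was at least 2-fold higher (3.77% of all measured genes) and 0 lower (5.12% of all). A ratio above 1 was found for 13 (47.0% of all). The median log2 ratio was 0.02, with a range of -0.02 to 0.17 over the alternatives. MAGT1, an oligosaccharyltransferase subunit, had 196 and 431 (2.20-fold higher), and SRP54, the signal-binding subunit of the signal recognition particle, had 1247 and 2203 (1.77-fold higher). STT3A, a catalytic subunit of N-glycosylation (1039 and 759.6), and the signal peptidase gene SPCS2 (6574 and 4818) were each lower, by 1.37-fold and 1.36-fold.

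Of 22 measured further genes of ER stress signalling, 1 was at least 2-fold higher (3.77% of all measured genes) and 3 lower (5.12% of all). A ratio above 1 was found for 11 (47.0% of all), and the median log2 ratio was -0.02. That median was above 0 with equal medians (0.11), a floor raised to the 60th percentile (0.047), quantile normalization (0.042) or loess (0.015), so its sign depends on these settings. CREB3L2, a membrane-bound relative of ATF6, had 685 and 1380.5 (2.02-fold higher), and RTCB, the ligase that rejoins the cut XBP1 RNA, had 1993 and 3661 (1.84-fold higher). On the branch that runs from PERK, ATF4 had 6311 and 2791 (2.26-fold lower) and its target TRIB3 1136 and 329.5 (3.45-fold lower). These were the 2 lowest ratios of the list, and the branch was not summarised as a whole. Its other listed genes DDIT3, PPP1R15A, PPP1R15B and CHAC1 were not among those at least 2-fold apart, and their values are not given here. ATF3 (3535 and 3883) and EIF2S1 (3918 and 5801), also listed, were higher, with log2 ratios of 0.14 and 0.57. The third gene at least 2-fold lower, named after its value was seen, was NFYC (969.9 and 471, 2.06-fold lower, with each of its 4 probe sets lower). It encodes a subunit of the NF-Y factor that binds the CCAAT part of the ERSE. The other NF-Y subunit genes had 340 and 413 (NFYA) and 576 and 757 (NFYB), log2 ratios of 0.28 and 0.39.

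Genes of the vesicles that carry folded protein from ER to Golgi and back had a median log2 ratio of 0.22, with 2 of 29 measured genes at least 2-fold higher (3.77% of all measured genes), 0 lower (5.12% of all) and 21 with a ratio above 1 (47.0% of all). SEC22B, a vesicle fusion protein gene, had 423 and 1067 (2.52-fold higher), and SAR1B, the GTPase that starts the outbound coat, had 672 and 1388 (2.06-fold higher). KDELR3, a receptor that returns escaped ER proteins, had 133 and 75.7 (1.76-fold lower), and the return coat gene COPG1 302 and 179 (1.68-fold lower).

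**Figure D5:**
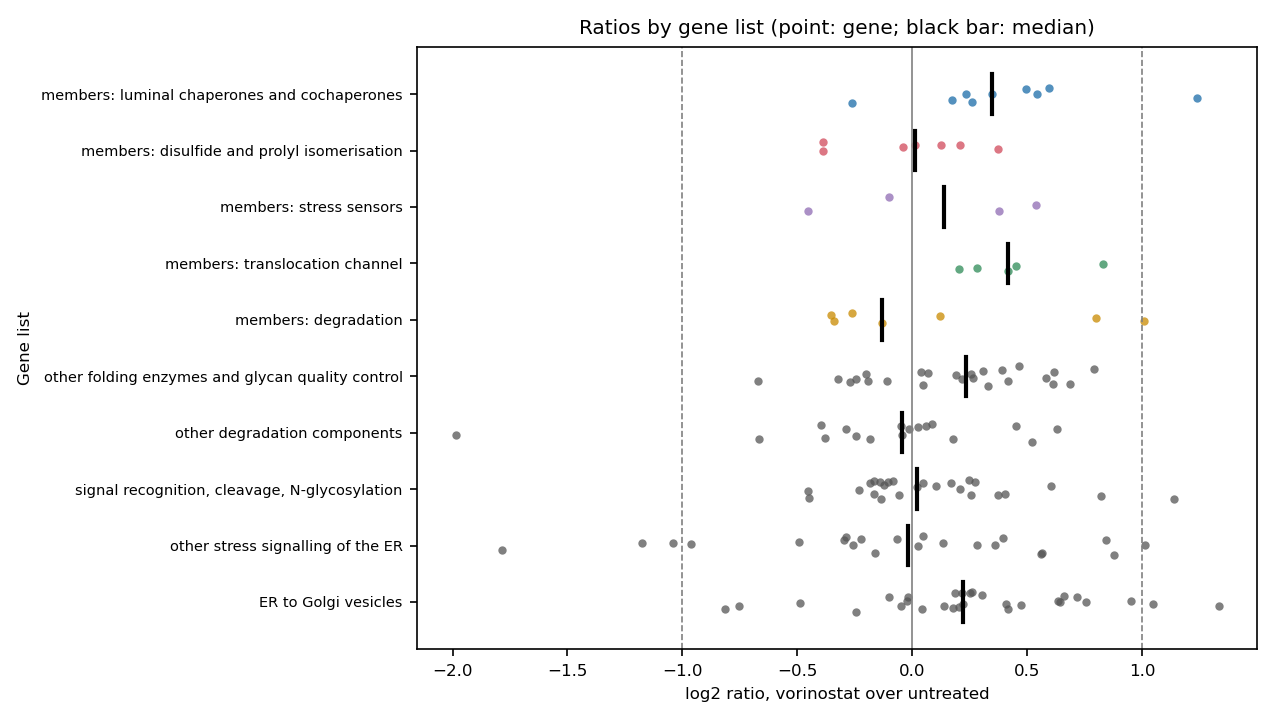
Log2 ratio of treated over untreated for each measured gene (point) of the 5 role groups of members and 5 further pathway lists, with the median of each list as a black bar and dashed lines at 2-fold; the vertical scatter within a row has no meaning. The channel members all lie above 0, while the degradation members hold both UFD1 at 1.01 and DERL1 at -0.36.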

How the data were processed

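Total RNA of 1 untreated and 1 vorinostat-treated L-540 culture was labelled with biotin and hybridised to 1 array each, per the labels' protocols. The deposited intensity values per probe set came from MAS5 according to the authors, per the submitters' processing notes; version, scaling target and detection calls are not given in the sources used here. The signals were used as deposited. Of 22283 probe sets, 68 control ones were left out. Signals under the floor, the 40th percentile of both arrays pooled (68.9), were set to it before log2; a probe set under it on both arrays was not measured. The probe set with the highest mean log2 value over both arrays stood for its gene. Symbols came from the platform annotation, and all 54 member probe sets kept theirs against RefSeq of GRCh38.p14. All members are named, those at least 2-fold apart or with probe sets in opposite directions by 0.5 or more in full; of each pathway list, the 2 highest and 2 lowest ratios above the floor. Members and lists were chosen with earlier results of these data known. Ratios, gene summaries and scalings were tested on simulated data. Protein sequences, planned for, were not analysed here. Work was done in Python 3.11.15 with pandas 2.3.3 and statsmodels 0.14.6 (loess span 0.4).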

Additional observations from a re-analysis of the deposited data

How the results depend on the processing

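With 1 array a group, the number of arrays limits the precision, and counts of 2 or fewer can change by 1 gene near the threshold. The count of ER genes at least 2-fold higher, 2 as deposited, was 1 after quantile normalization, after loess, with the median over probe sets and with the probe sets also listed under microRNA genes, the last chosen after seeing the data. It was 0 at 3-fold and 5 at 1.5-fold. It was also 0 without shared-sequence probe sets, which leaves 20 of the 32 genes. That setting gives HSP90B1 and UFD1 no value, so its count of 0 was fixed in advance and says nothing about their ratios. The count of probe sets higher, also 2 as deposited, was 1 after quantile normalization and after loess. It was 0 at 3-fold, 3 for a floor lowered to the 25th percentile or replaced by the offset, and 8 at 1.5-fold. Without shared-sequence probe sets it was 0, again fixed in advance, since both probe sets past 2-fold carry the suffix. The count of probe sets lower was 1 at 1.5-fold and 0 under the other settings. The members' median log2 ratio ranged from 0.14 to 0.35, the highest with equal medians, where the medians of the further degradation and stress signalling lists were 0.085 and 0.11. Of the 32 members 27 kept their sign under the alternatives that gave them a value, and P4HB, DNAJB9, ERN1, VCP and FKBP2 did not; 12 members had no value without shared-sequence probe sets and 2 none with the floor at the 60th percentile. HSP90B1 had a log2 ratio of 0.55 with the median over its probe sets and 0.80 with the further pair counted. The cause of these changes was not tested beyond what each setting leaves out. No paired analysis was possible because each group has 1 array.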

Other observations

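A pair of measured members share a promoter region with a measured gene that runs the other way. The annotated starts lie within 1000 bases on opposite strands, in RefSeq on GRCh38.p14. Neighbours that were not measured genes on these arrays were not counted. CRELD2 starts 196 bases from ALG12, a mannosyltransferase gene of N-glycan assembly. The ERSE printed above lies between those starts, and the ratios differed: CRELD2 had a log2 ratio of 0.49 and ALG12, at 113 untreated and 82.5 treated, -0.46. DERL2 also starts 196 bases from its neighbour, the kinetochore gene MIS12, with log2 ratios of -0.13 for DERL2 and 0.21 for MIS12 (585 and 679). This search was chosen after seeing the data, and no difference between partners was tested.

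The spread between probe sets of the same gene can be read beside that of all genes. Over the 12 members with several measured probe sets, the median spread between the highest and lowest log2 ratio was 0.19, and 8 of 12 had all probe sets on the same side of 0. Over the 2746 measured genes with several, the median spread was 0.36 and 1963 had all on the same side. The members are mostly bright, and the part of brightness in this was not tested.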
